A study of Mus musculus with 4 samples.

Results

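The comparison described here sets Blimp1-hi plasma cells against Blimp1-int plasma cells from mouse spleen, across all genes of an Illumina array. It was made by subtracting, probe by probe, the mean of the 2 Blimp1-int arrays from the Blimp1-hi array, and each difference was then checked against each Blimp1-int array separately. It rests on 3 of the 4 arrays of the study; the other holds naive follicular B cells, whose values are given for context. Blimp1-hi cells were sorted as CD138+ cells with high Blimp1 (1 array) and Blimp1-int cells as CD138+ cells with intermediate Blimp1 (2 arrays); the naive cells were sorted as B220+ IgD+ (1 array). All cells came untreated from mice of the C57BL/6 strain whose genotype the labels give as prmd1-gfp, in which a green fluorescent protein reports the gene that encodes Blimp1. No age is given in the labels. The plasma cells were taken from pools of 5 to 10 animals, so 1 array holds a pool and not an animal, and no source says whether the Blimp1-int arrays came from separate pools. The source and cell type fields of the 3 plasma cell arrays name follicular B cells, against their titles and sort gates, which the grouping follows.

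Blimp1, encoded by Prdm1, is the transcription factor that ends the B cell programme and sets up antibody secretion. Cells that have just begun to secrete antibody, often called plasmablasts, still divide and have less Blimp1, whereas mature plasma cells no longer divide and have more of it. The level of a Blimp1 reporter is therefore used to separate early from late antibody-secreting cells in the spleen.

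Levels are given below as the authors' deposited normalized signals on a log2 scale, in which a difference of 1 is 2-fold if the scale is a plain log2. The sources used here do not say whether it is a plain or a variance-stabilized log2. Background was set on each array from 42 probes for sequences foreign to the mouse and lay at 8.65 on the Blimp1-hi array, at 8.66 and 8.68 on the Blimp1-int arrays and at 8.63 on the naive array. Of the 46120 probes, 6893 exceeded it on the Blimp1-hi array, against 6808 and 6483 on the Blimp1-int arrays and 7255 on the naive array. Gene names could be assigned to 9850 probes. The tests covered the 2711 named genes that were above background on 1 array or more. A gene is said to have passed the test at a limma Benjamini-Hochberg adjusted p under 0.05 over all 2711 genes, and to have been called when it also differed by at least 1.

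The spread behind every test is that of the Blimp1-int pair. With a single Blimp1-hi array, the test assumes that this population varies as the Blimp1-int pair does, and the p-values measure only the spread between those 2 samples, which may be technical. The median gene differed by 0.13 in absolute value between Blimp1-hi and the Blimp1-int mean, and by 0.08 between the Blimp1-int arrays. Of the 2711 genes, 7 were called higher in Blimp1-hi, 0.258% of those tested, and 11 were called lower, 0.406%. All 18 lay above background on all 3 plasma cell arrays. By the test alone, 80 genes were higher, 2.95%, and 263 were lower, 9.7%. Lower genes thus made up 76.7% of those that passed the test, against 66.3% after cyclic loess normalization and 67.7% after the arrays were normalized again without immunoglobulin probes. Taken against each Blimp1-int array separately, 3 genes were more than 2-fold higher from both, 0.111%, and 9 were more than 2-fold lower from both, 0.332%, whereas the Blimp1-int arrays differed from each other by over 2-fold in 2 genes, 0.0738%.

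**Figure D1:**
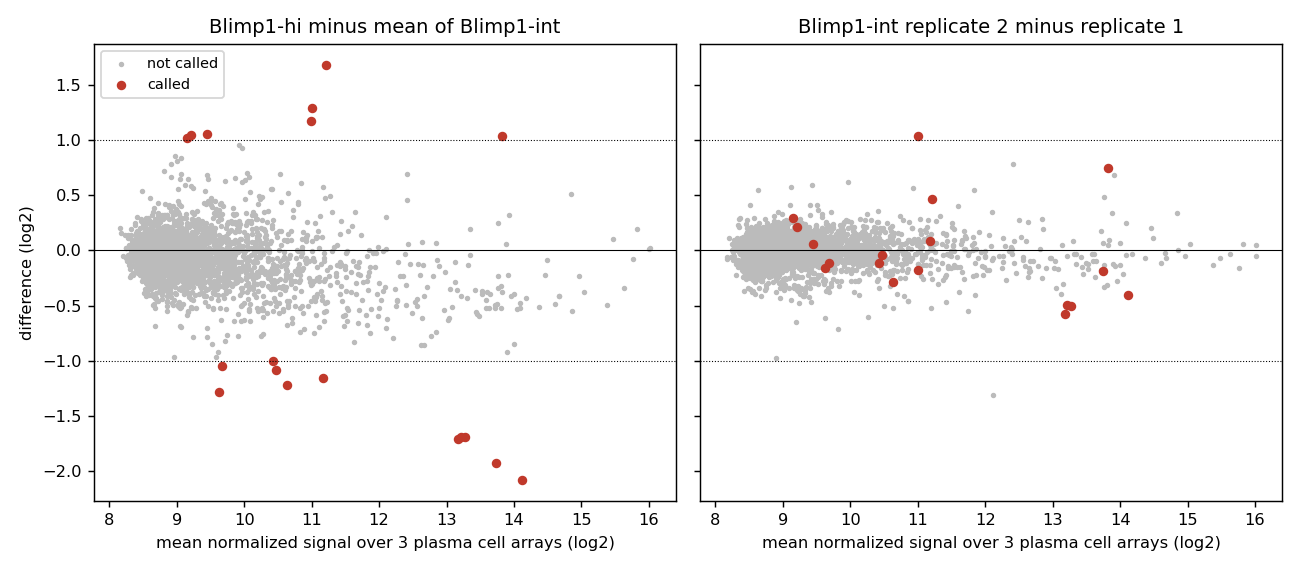
The left panel plots, for 2711 genes, the difference between Blimp1-hi and the mean of the Blimp1-int arrays (log2, y axis) against the mean signal of the 3 plasma cell arrays (log2, x axis); the right panel plots the difference between the Blimp1-int arrays for the same genes. Red points are the 18 called genes, dotted lines mark a difference of 1 in either direction, and the 5 lowest points of the left panel, at -1.69 or below, are histone H2A genes.

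The sort labels were checked first. Sdc1 encodes CD138, the surface proteoglycan on which plasma cells were sorted. Its level was 9.55 in Blimp1-hi, against 9.21 and 9.36 in Blimp1-int and 8.24, below background, in naive cells. The Blimp1-hi value was the highest of the 3 plasma cell arrays, but the difference of 0.27 (SE 0.11) did not pass the test (adjusted p = 0.129, limma). A probe for eGFP, the reporter, gave 11.23 in Blimp1-hi, against 10.55 and 10.82 in Blimp1-int and 8.29, below background, in naive cells. The reporter was thus read in all 3 plasma cell arrays and was highest in Blimp1-hi, in the order of the gates, with a difference of 0.55 (SE 0.13) that did not pass the test over all 9366 probes (adjusted p = 0.0651, limma). Probes were fitted apart from the genes, and a difference of a given size and SE can pass among genes but not among probes. A probe for NeoR, a neomycin resistance gene, gave 11.20 in Blimp1-hi, against 11.001 and 11.27 in Blimp1-int and 8.40 in naive cells. This second probe foreign to the wild-type mouse differed by 0.06 (SE 0.13, adjusted p = 0.811, limma) between the plasma cell groups, and the Blimp1-hi value lay between the Blimp1-int values. Probes for GFP and IRES lay below background on all 4 arrays. Prdm1, the gene of Blimp1, could not be assigned a probe and is not analysed here.

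**Figure D2:**
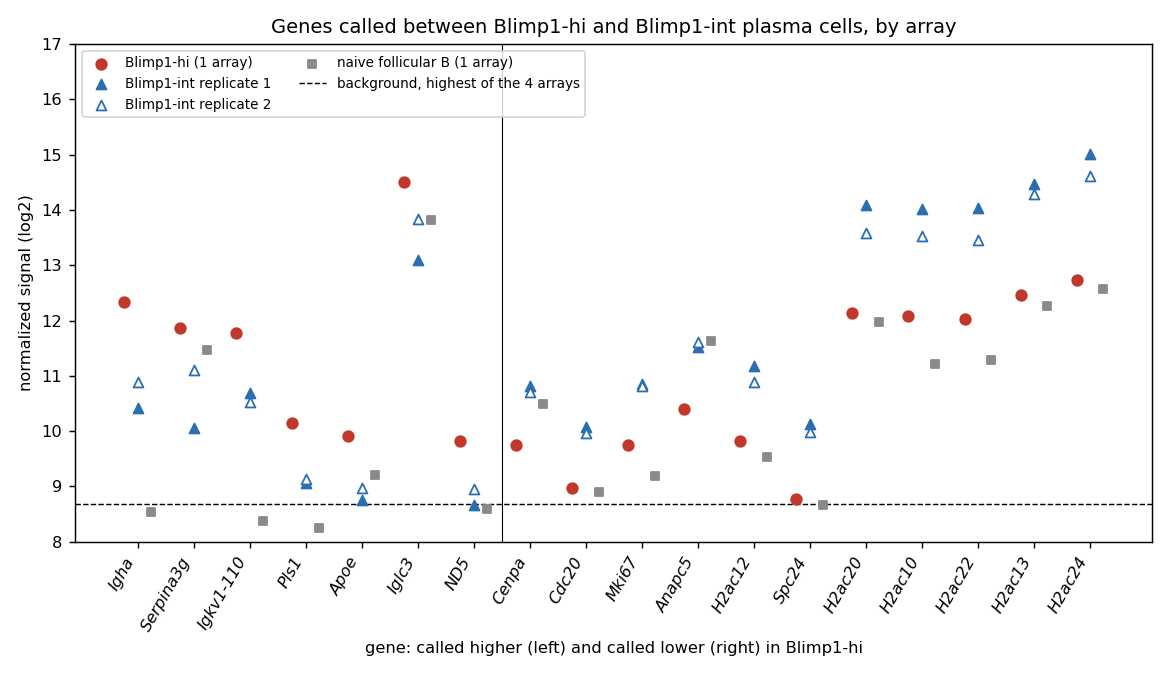
Normalized signal (log2, y axis) of the 18 called genes (x axis) on each array, with Blimp1-hi as circles, the 2 Blimp1-int arrays as filled and open triangles, and naive cells as squares. The dashed line is the highest of the array backgrounds, and in every one of these genes the Blimp1-hi circle lies outside both Blimp1-int triangles. Of all 2711 genes, 51.9% lay below both Blimp1-int arrays, and the called genes were chosen for a large difference.

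The largest differences among named genes were in histone genes that cells transcribe when they copy their DNA. Replication-dependent histones package newly made DNA, and their messages are abundant only in S phase. H2ac24 had a level of 12.73 in Blimp1-hi, against 15.02 and 14.61 in Blimp1-int and 12.57 in naive cells. The Blimp1-hi array thus lay far below both Blimp1-int arrays and close to the naive one, and the gene was 4.23-fold lower in Blimp1-hi (difference -2.08, SE 0.14, adjusted p = 6.51e-06, limma). H2ac13 had a level of 12.46 in Blimp1-hi, against 14.47 and 14.29 in Blimp1-int and 12.27 in naive cells. It was 3.79-fold lower, with the smallest adjusted p of all genes (difference -1.92, SE 0.11, adjusted p = 1.81e-06, limma). H2ac22 had 12.04 in Blimp1-hi, against 14.03 and 13.46 in Blimp1-int and 11.29 in naive cells. H2ac10 had 12.08 in Blimp1-hi, against 14.02 and 13.52 in Blimp1-int and 11.21 in naive cells. H2ac20, the member of the group on chromosome 3 rather than 13, had 12.14 in Blimp1-hi, against 14.08 and 13.58 in Blimp1-int and 11.97 in naive cells. Each of these 3 genes was lower by 1.69 to 1.71. The Blimp1-hi value lay below both Blimp1-int values in each, where 51.9% of all genes did so, but these genes are named for a large difference. H2ac12 had 9.82 in Blimp1-hi, against 11.18 and 10.89 in Blimp1-int and 9.54 in naive cells, and was lower by 1.22 on the log2 scale (difference -1.22, SE 0.12, adjusted p = 8.62e-05, limma). These H2A genes are near-identical copies, so the probes may read each other's messages and the 6 calls are not 6 separate observations.

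The other histone families differed less. Of 34 replication-dependent histone genes tested, 9 were H2A genes, of which 6 were called lower and 2 passed the test as higher. The higher ones were H2ac19, with 10.52 in Blimp1-hi, against 9.81 and 9.89 in Blimp1-int and 9.87 in naive cells (difference 0.67, SE 0.10, adjusted p = 0.0016, limma), and H2ac6, which lay below background in Blimp1-int. Of 7 H3 genes, 3 passed the test as lower and none as higher, with a median difference of -0.29. They were H3c6 with a difference of -0.44, H3c11 with -0.44 and H3c4 with -0.38, each low in signal and H3c11 below background in Blimp1-hi. None of 9 H2B genes and none of 9 H4 genes passed the test (limma). Their median differences were 0.08 and -0.10, and most of their probes lay close to background. Over the whole list the median difference was -0.11, against -0.06 over all 2711 genes.

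**Figure D3:**
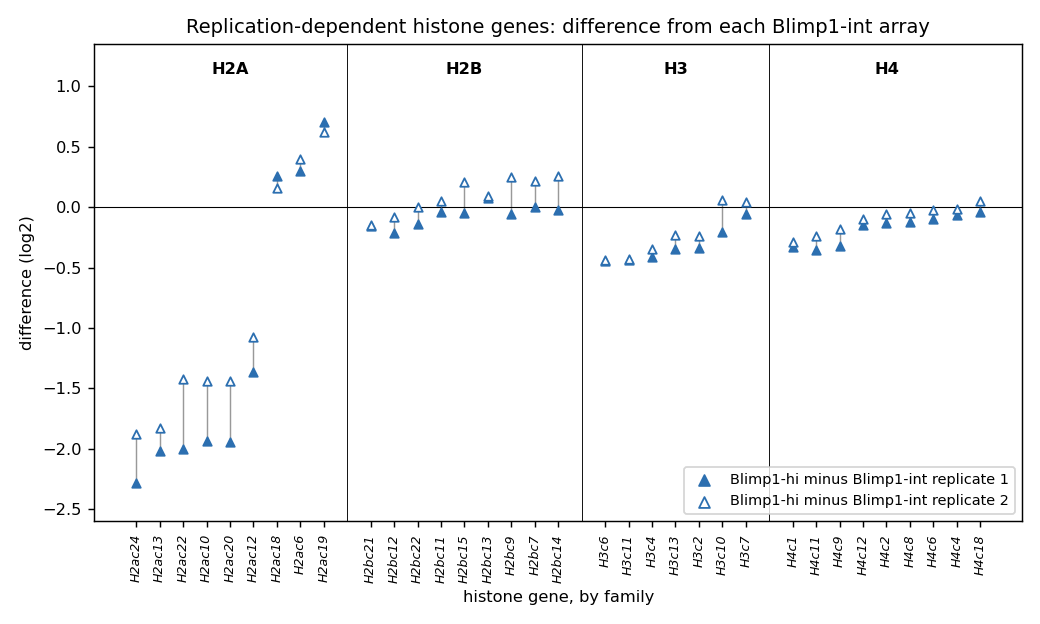
Difference of Blimp1-hi from Blimp1-int replicate 1 (filled triangles) and from replicate 2 (open triangles) for 34 replication-dependent histone genes, in log2 units (y axis), grouped by family (x axis). The 6 called H2A genes lie more than 1 below 0 from either replicate, while the 9 H2B and 9 H4 genes lie near 0.

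Genes of mitosis and chromosome segregation were lower in Blimp1-hi as a group. Of 94 genes listed, 21 were tested. Of these 15 passed the test as lower, 71.4% of those tested beside a background of 9.7%, and none as higher. All 21 lay below both Blimp1-int arrays, where 51.9% of all genes did so, and the median difference was -0.54 against -0.06 over all genes. The median was -0.66 from Blimp1-int replicate 1 and -0.46 from replicate 2, and the Blimp1-int arrays differed from each other by a median of -0.15 (replicate 2 minus replicate 1). All 21 exceeded background on Blimp1-int replicate 1, but 16 did so on Blimp1-hi and 15 in naive cells. For genes that entered the test only through Blimp1-int, a lower sign was nearly fixed by the filter. With no filter on dim genes the median difference of the list was -0.32.

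Within the mitosis list, Spc24 encodes a subunit of the Ndc80 complex, which attaches chromosomes to spindle microtubules. It had 8.77 in Blimp1-hi, against 10.13 and 9.98 in Blimp1-int and 8.66 in naive cells. Blimp1-hi lay just above background beside the naive array, and the gene was 2.43-fold lower than in Blimp1-int (difference -1.28, SE 0.11, adjusted p = 4.78e-05, limma). Mki67, which encodes the Ki-67 antigen of dividing cells, had 9.75 in Blimp1-hi, against 10.85 and 10.81 in Blimp1-int and 9.19 in naive cells. It was 2.12-fold lower (difference -1.09, SE 0.10, adjusted p = 5.54e-05, limma) and lay between the Blimp1-int and the naive levels. Anapc5, a subunit of the anaphase-promoting complex that starts chromosome separation, had 10.40 in Blimp1-hi, against 11.52 and 11.61 in Blimp1-int. Its level in naive cells was 11.64, at that of Blimp1-int, so that Blimp1-hi had the lowest of the 4 arrays (difference -1.16, SE 0.10, adjusted p = 5.54e-05, limma). Cenpa, the histone H3 variant that marks centromeres, had 9.76 in Blimp1-hi, against 10.82 and 10.70 in Blimp1-int and 10.50 in naive cells. It passed the 2-fold threshold narrowly (difference -1.004, SE 0.11, adjusted p = 0.00011, limma) and was no longer called after cyclic loess, where it differed by -0.95. Cdc20, the activator of the anaphase-promoting complex, had 8.98 in Blimp1-hi, against 10.08 and 9.97 in Blimp1-int and 8.89 in naive cells (difference -1.05, SE 0.11, adjusted p = 8.53e-05, limma). A second Cdc20 probe differed by 0.22, with 8.70 in Blimp1-hi, against 8.47 and 8.50, below background, in Blimp1-int. The mean of both probes differed by -0.41, so the Cdc20 call rests on 1 probe.

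The other mitotic genes that passed the test differed by less than 2-fold. Plk1, the kinase that drives entry into mitosis, had 8.92 in Blimp1-hi, against 9.81 and 9.60 in Blimp1-int and 8.77 in naive cells (difference -0.79, SE 0.11, adjusted p = 0.00105, limma). Birc5 encodes survivin, a subunit of the chromosomal passenger complex, and had 8.72 in Blimp1-hi, against 9.56 and 9.45 in Blimp1-int and 8.67 in naive cells (difference -0.78, SE 0.11, adjusted p = 0.000653, limma). Both genes were read near the naive level in Blimp1-hi and above it in Blimp1-int. Nusap1, a spindle microtubule protein, differed by -0.85, and Ccnb1, the mitotic cyclin B1, by -0.47.

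Of 19 tested genes of DNA replication and the G1/S transition, 9 passed the test as lower, 47.4% beside a background of 9.7%, and none as higher. The median difference was -0.33, and -0.12 with no filter on dim genes. On Blimp1-int replicate 1, 18 of the genes exceeded background, but 14 did so on Blimp1-hi and 13 in naive cells. Here too a lower sign was nearly fixed by the filter for genes that entered only through Blimp1-int, and they are among the counts. Rrm2, the S phase subunit of ribonucleotide reductase, had 8.33, below background, in Blimp1-hi, against 9.44 and 9.13 in Blimp1-int and 8.46 in naive cells. Its measured difference was -0.96 (SE 0.13, adjusted p = 0.000598, limma), and the bound set by the background is at least 1.55-fold lower in Blimp1-hi. Uhrf1, which recruits the maintenance DNA methyltransferase to newly copied DNA, had 9.0005 in Blimp1-hi, against 10.08 and 9.77 in Blimp1-int and 9.37 in naive cells (difference -0.92, SE 0.13, adjusted p = 0.000757, limma). E2f2, a transcription factor of the cell cycle, had 9.24 in Blimp1-hi, against 9.95 and 10.05 in Blimp1-int and 8.90 in naive cells (difference -0.76, SE 0.10, adjusted p = 0.00074, limma). The group did not move as one, since 3 of its 19 genes had a difference above 0. Pcna, the sliding clamp of DNA polymerase, had 8.87 in Blimp1-hi, against 8.88 and 8.84 in Blimp1-int and 8.52 in naive cells, and Tk1, a thymidine kinase, differed by -0.11 (adjusted p = 0.553, limma). Of 4 tested cell cycle inhibitors and p53 target genes none passed the test, and their largest difference was -0.29 in Ccng1 (adjusted p = 0.093, limma).

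Because mitotic and histone genes led the lower side, their promoters are shown. RefSeq promoter windows of 250 bases before to 50 bases after the start (assembly GRCm38.p6) were available for 10 of the 11 genes called lower. They were searched on both strands for CCAAT, the box bound by NF-Y, and for TTTGAA and TTCGAA, which are forms of the cell cycle homology region, an element of G2/M promoters. The search also covered E2F sites (TTTCCCGC or TTTGGCGC), the core AGNGAAAG of Blimp1 sites, and the ER stress element, whose letters begin with a CCAAT box. The next 4 sequences are the 250 bases upstream of the start of 2 H2A genes and 2 mitotic genes, 5′ to 3′ on the gene's strand, with CCAAT and the cell cycle homology forms, read on either strand, in capitals.

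H2ac24, chr13:21833476-21833725, minus strand: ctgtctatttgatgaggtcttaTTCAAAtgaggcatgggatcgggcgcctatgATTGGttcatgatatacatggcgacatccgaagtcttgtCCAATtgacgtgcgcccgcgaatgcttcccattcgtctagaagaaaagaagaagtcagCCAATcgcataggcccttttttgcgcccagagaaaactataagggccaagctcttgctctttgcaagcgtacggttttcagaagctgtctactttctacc

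H2ac13, chr13:21716162-21716411, plus strand: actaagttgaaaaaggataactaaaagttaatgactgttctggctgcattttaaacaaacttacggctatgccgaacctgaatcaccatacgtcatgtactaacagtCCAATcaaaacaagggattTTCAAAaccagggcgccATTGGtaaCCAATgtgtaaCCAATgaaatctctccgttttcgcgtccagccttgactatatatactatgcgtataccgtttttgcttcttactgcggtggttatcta

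Cdc20, chr4:118437344-118437593, minus strand: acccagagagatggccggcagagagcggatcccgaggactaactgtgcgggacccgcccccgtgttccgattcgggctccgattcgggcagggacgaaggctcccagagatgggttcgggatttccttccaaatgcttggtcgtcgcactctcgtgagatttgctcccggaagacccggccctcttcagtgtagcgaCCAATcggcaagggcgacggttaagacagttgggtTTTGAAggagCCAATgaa

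Mki67, chr7:135716380-135716629, minus strand: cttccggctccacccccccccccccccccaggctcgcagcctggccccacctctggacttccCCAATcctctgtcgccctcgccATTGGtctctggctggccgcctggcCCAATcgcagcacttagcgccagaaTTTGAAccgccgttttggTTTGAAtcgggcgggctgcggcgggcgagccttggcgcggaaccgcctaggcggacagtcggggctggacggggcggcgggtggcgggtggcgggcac

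The H2ac13 stretch holds 4 CCAAT boxes, those of H2ac24 and Mki67 hold 3 each, and that of Cdc20 holds 2. All 10 genes called lower that have a window hold CCAAT, against 43.6% of the 2223 tested genes with a window and 37.4% of all 32851 promoter windows. The shares of gene sets count genes, some of which have several windows, whereas the share of all windows counts single windows. The cell cycle homology forms stand in 6 of the 10, against 16.96% of tested genes and 19.2% of all windows. Of the 225 genes with a window that passed the test as lower, 53.3% hold CCAAT and 21.8% a cell cycle homology form. Of the 67 such genes that passed as higher, 38.8% and 25.4% do. The homology form was thus no rarer on the higher side. Of 19 genes of the mitosis list with a window, 63.2% hold CCAAT and 47.4% a cell cycle homology form. Only 3 of the 7 genes called higher have a window, of which none holds CCAAT and 2 hold a cell cycle homology form. None of the 10 genes called lower with a window holds the E2F, Blimp1 core or ER stress letters. These stand in 3.64%, 8.86% and 0.09% of tested genes with a window. Neighbouring histone genes share promoter sequence, so these windows are not independent, and a match of letters is not a bound site.

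On the higher side, genes of the antibody itself led. Igha encodes the constant region of the IgA heavy chain. It had 12.33 in Blimp1-hi, against 10.41 and 10.88 in Blimp1-int and 8.53, below background, in naive cells. The Blimp1-hi array was above both others by more than 2-fold, and the gene was 3.21-fold higher (difference 1.68, SE 0.15, adjusted p = 5.54e-05, limma). Iglc3, a constant region of the lambda light chain, had 14.51 in Blimp1-hi, against 13.10 and 13.84 in Blimp1-int and 13.81 in naive cells. It was 2.05-fold higher (difference 1.04, SE 0.21, adjusted p = 0.00719, limma), but the difference from Blimp1-int replicate 2 alone was 0.67. Iglc2, a near-identical lambda constant region, had 15.19 in Blimp1-hi, against 14.51 and 14.84 in Blimp1-int and 14.27 in naive cells (difference 0.51, SE 0.13, adjusted p = 0.0236, limma). Jchain, the small protein that joins IgA and IgM monomers into polymers, had 11.25 in Blimp1-hi, against 10.73 and 10.54 in Blimp1-int and 8.15 in naive cells. It passed the test as higher without reaching 2-fold (difference 0.61, SE 0.11, adjusted p = 0.0045, limma).

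None of the tested constant regions of the IgG class passed the test as higher. Ighg2c, a heavy chain of the IgG class, had 15.40 in Blimp1-hi, against 15.76 and 15.73 in Blimp1-int and 9.85 in naive cells, and passed the test as lower (difference -0.34, SE 0.10, adjusted p = 0.0472, limma). The 110 genes with a mean above 12 over the plasma cell arrays had a median difference of -0.39, near that of Ighg2c. What part brightness has in the Ighg2c difference was not tested. Ighg1 differed by -0.15 and Ighg3 by -0.08, neither past the test. Ighm, the IgM heavy chain, had 16.01 in Blimp1-hi, against 15.98 and 16.03 in Blimp1-int and 14.83 in naive cells. Igkc, the kappa constant region, had 16.03 in Blimp1-hi, against 16.03 and 15.98 in Blimp1-int and 15.98 in naive cells. These last values stand at or beside 16.03, the highest value that the normalization leaves on any array, so differences between arrays are compressed there and were not detectable. Of the 11 tested constant region and J chain genes, 4 passed the test as higher, 36.4% beside a background of 2.95%, and 1 as lower. The median difference was 0.10, and it was 0.29 after cyclic loess and 0.024 with no filter.

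Variable segments of immunoglobulin genes, which encode the antigen-binding part of each chain, were read by probes named for the segment. They were fitted with all 9366 probes above background, of which 90 were called higher, 0.961%, and 28 were called lower, 0.299%. By the test alone 54.0% of the probes that passed were lower, against 42.4% after cyclic loess and 44.8% with a variance trend, so that the majority turned. Of 290 variable segment probes, 198 were tested, 64 were called higher in Blimp1-hi and none was called lower (limma). By the test alone 107 were higher, 54.0% of them beside a background of 2.95% of all probes, and none was lower, where 3.46% of all probes were. A difference above 0 was found in 188 of the 198. The Blimp1-hi value was above both Blimp1-int arrays in 173, or 87.4%, beside 37.9% of all probes, and more than 2-fold above each of them in 56, or 28.3%, beside 0.801% of all probes. The median difference was 0.84, against -0.02 over the 9152 probes not named for an immunoglobulin gene, and it was 0.78 from Blimp1-int replicate 1 and 0.86 from replicate 2. The Blimp1-int arrays differed from each other by a median of -0.06 over these probes. Probes of 1 family share sequence and can read each other's messages, so they are not independent of one another. A probe entered the test by exceeding background on any 1 array. Of the 198, 196 exceeded it in Blimp1-hi and 174 on both Blimp1-int arrays. For probes that entered through Blimp1-hi alone, a higher sign was nearly fixed by this filter, and they are among the counts. With no filter the median difference of variable segments was 0.49.

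Heavy and light chain segments were both among the called probes. Of 94 heavy chain probes, 29 were called higher, with a median difference of 0.67, and of 102 kappa probes 33 were called, with a median of 0.92. Both of the 2 tested lambda probes were called. The highest difference was that of IGKV4-86, which had 14.23 in Blimp1-hi, against 10.66 and 11.19 in Blimp1-int and 9.02 in naive cells. It was 9.87-fold higher (difference 3.30, SE 0.20, adjusted p = 0.00229, limma) and belongs to a family of 27 tested probes with a median difference of 0.79. IGKV8-27 had 12.74 in Blimp1-hi, against 10.70 and 10.68 in Blimp1-int and 8.96 in naive cells (difference 2.05, SE 0.09, adjusted p = 0.00151, limma). In the IGKV8 family 9 of 11 tested probes were called. IGKV1-99 had 13.52 in Blimp1-hi, against 10.99 and 11.71 in Blimp1-int and 8.79 in naive cells (difference 2.18, SE 0.27, adjusted p = 0.0111, limma). IGKV2-137 had a difference of almost the same size, 2.19, with 14.36 in Blimp1-hi, against 11.48 and 12.87 in Blimp1-int, but did not pass the test (adjusted p = 0.0574, limma). Its Blimp1-int arrays differed from each other by more than 2-fold.

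Among heavy chain segments, IGHV6S4 had 12.37 in Blimp1-hi, against 10.78 and 10.34 in Blimp1-int and 8.38 in naive cells (difference 1.81, SE 0.18, adjusted p = 0.00567, limma). IGHV1S6 had 11.75 in Blimp1-hi, against 10.05 and 10.25 in Blimp1-int and 8.33 in naive cells (difference 1.59, SE 0.11, adjusted p = 0.00255, limma). In both, the Blimp1-hi value lay above both Blimp1-int values, where 37.9% of all probes did so, but these probes are named for a large difference. The naive level of both was below background. Families differed in how many of their probes were called, with 6 of 7 in IGHV8, 7 of 43 in IGHV1 and 5 of 22 in IGHV5. Of the lambda segments, IGLV3 had 13.42 in Blimp1-hi, against 11.74 and 11.70 in Blimp1-int and 10.95 in naive cells, and IGLV2 had 14.17 in Blimp1-hi, against 12.73 and 12.36 in Blimp1-int and 10.08 in naive cells. The gene Igkv1-110, named through its gene number, had 11.78 in Blimp1-hi, against 10.69 and 10.52 in Blimp1-int and 8.38 in naive cells, and was called among the genes (difference 1.18, SE 0.11, adjusted p = 5.54e-05, limma). A brighter probe named for this segment had 15.79 in Blimp1-hi, against 14.93 and 14.65 in Blimp1-int and 12.21 in naive cells. It passed the test over all probes but fell just short of a call (difference 0.997, SE 0.13, adjusted p = 0.0147, limma).

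A few segments did not follow the rest. IGKV19-93 had 13.86 in Blimp1-hi, against 14.64 and 13.88 in Blimp1-int, with a difference of -0.39 (SE 0.28, adjusted p = 0.46, limma). IGHV1S59 had 10.74 in Blimp1-hi, against 11.55 and 10.66 in Blimp1-int, with a difference of -0.37 (SE 0.32, adjusted p = 0.55, limma). In both the Blimp1-hi value lay within or beside the wide range of the Blimp1-int pair. Probes were also split by level, taken as the mean of the Blimp1-hi value and the Blimp1-int mean. Of 67 probes between 9 and 11, 28 were called, as were 25 of 59 between 11 and 13, 10 of 48 above 13, and 1 of 24 below 9.

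**Figure D4:**
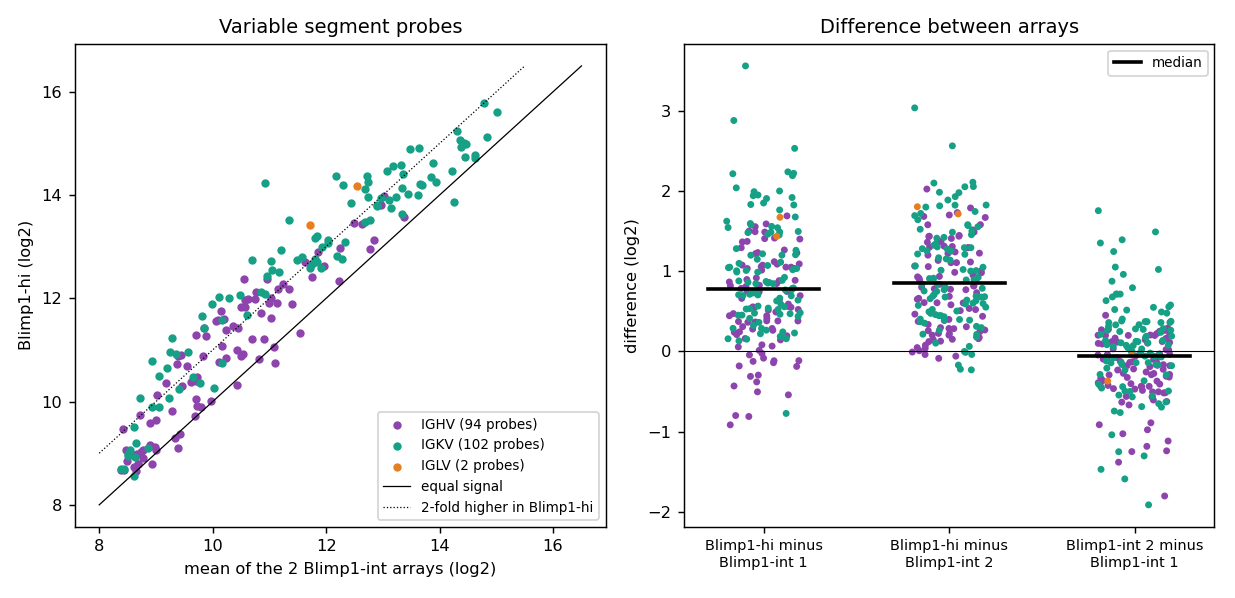
Left, signal of 198 variable segment probes in Blimp1-hi (log2, y axis) against the mean of the Blimp1-int arrays (log2, x axis), coloured by chain, with lines of equal signal and of a 2-fold higher signal in Blimp1-hi. Right, the difference of the same probes between pairs of arrays (log2, y axis), where the black bars are medians at 0.78 and 0.86 for Blimp1-hi against either Blimp1-int array and at -0.06 between the Blimp1-int arrays.

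The other genes called higher have varied roles. Pls1, an actin-bundling protein, had 10.15 in Blimp1-hi, against 9.07 and 9.13 in Blimp1-int and 8.24, below background, in naive cells. It was 2.07-fold higher, and the Blimp1-int arrays differed little from each other (difference 1.05, SE 0.10, adjusted p = 6.92e-05, limma). Serpina3g, a serine protease inhibitor, had 11.87 in Blimp1-hi, against 10.06 and 11.10 in Blimp1-int and 11.46 in naive cells. Its Blimp1-int arrays differed by 1.04 from each other, and the difference from replicate 2 alone was 0.77 (difference from the mean 1.29, SE 0.28, adjusted p = 0.00953, limma). Apoe, the apolipoprotein E of lipid transport, had 9.91 in Blimp1-hi, against 8.76 and 8.97 in Blimp1-int and 9.22 in naive cells (difference 1.05, SE 0.11, adjusted p = 0.00014, limma). Without Blimp1-int replicate 1 it differed by 0.94. A mitochondrial probe for ND5, a subunit of respiratory complex I, had 9.83 in Blimp1-hi, against 8.66 and 8.96 in Blimp1-int and 8.59, below background, in naive cells (difference 1.01, SE 0.13, adjusted p = 0.000436, limma). A second ND5 probe, brighter and fitted with all probes, had 10.93 in Blimp1-hi, against 10.53 and 10.64 in Blimp1-int, and did not pass the test (difference 0.35, adjusted p = 0.0983, limma). Of the 12 tested probes named for the mitochondrial genome, the second ND5 probe among them, none was called (limma), and 2 passed the test as higher, ND2 with a difference of 0.64 and ATP8 with 0.51.

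Apoe is also a macrophage marker, and its rise was read beside other markers of that kind. Of 29 macrophage and dendritic cell markers, 10 had a named probe and 2 exceeded background, Apoe and Vcam1. The summed signal of the 10 on a linear scale was 3857 in Blimp1-hi, against 3339 and 3733 in Blimp1-int and 3437 in naive cells. This sum includes Apoe itself, so it does not show how the other markers differed. Vcam1 lay below background in Blimp1-hi, at 8.46, against 8.44 and 8.99 in Blimp1-int. No probe of 5 T and NK cell markers or of 8 granulocyte markers exceeded background on any array. The part of other cells in the Apoe difference was not tested.

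The genes nearest to the 2-fold threshold show how the calls were cut. On the higher side ND5, at 1.01, and Iglc3, at 1.04, lay just past it. Fth1, the ferritin heavy chain, lay just short, with 10.56 in Blimp1-hi, against 9.59 and 9.62 in Blimp1-int and 12.04 in naive cells (difference 0.96). Sft2d2 followed with 0.93 and Il4i1, an amino acid oxidase, with 0.86. On the lower side Cenpa and Cdc20 lay just past the threshold, and Ckb, the brain-type creatine kinase, with -0.96, Rrm2 with -0.96 and Uhrf1 with -0.92 lay just short.

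Most transcription factors of the plasma cell and B cell programmes did not pass the test. Of 7 tested plasma cell factors, 1 passed the test. Xbp1, which drives expansion of the secretory pathway, had 14.39 in Blimp1-hi, against 14.81 and 14.79 in Blimp1-int and 10.65 in naive cells, and was lower in Blimp1-hi (difference -0.41, SE 0.10, adjusted p = 0.0193, limma). The 110 genes with a mean above 12 over the plasma cell arrays had a median difference of -0.39, near that of Xbp1. What part brightness has in the Xbp1 difference was not tested. Bhlha15, a factor of secretory cells also called Mist1, had 10.63 in Blimp1-hi, against 10.88 and 10.75 in Blimp1-int and 8.17 in naive cells, which did not pass the test (adjusted p = 0.295, limma). Of 14 tested B cell factors, 2 passed as higher, 14.3% beside a background of 2.95%, and 1 as lower, 7.14% beside 9.7%. Klf3 had 9.51 in Blimp1-hi, against 8.90 and 8.94 in Blimp1-int and 9.55 in naive cells (difference 0.59, SE 0.10, adjusted p = 0.00304, limma). Klf2, a factor of lymphocyte quiescence and migration, had 8.90 in Blimp1-hi, against 9.24 and 9.40 in Blimp1-int and 12.11 in naive cells (difference -0.42, SE 0.11, adjusted p = 0.0253, limma). Lmo2 was the other higher one, with a difference of 0.42. Spib and Bach2, factors of mature B cells, lay below background on all 3 plasma cell arrays.

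Most surface and antigen presentation genes of B cells did not pass the test. Among 16 tested genes of the B cell surface and of receptor signalling, 1 passed the test, Swap70, with 10.84 in Blimp1-hi, against 10.28 and 10.53 in Blimp1-int and 11.96 in naive cells (difference 0.44, SE 0.12, adjusted p = 0.0291, limma). That is 6.25% as higher, beside a background of 2.95%. Of 15 tested genes of MHC class II and antigen presentation, 1 passed as lower, 6.67% beside a background of 9.7%. It was Ifi30, a lysosomal thiol reductase, with 8.61, below background, in Blimp1-hi, against 9.37 and 9.22 in Blimp1-int and 9.82 in naive cells (difference -0.69, SE 0.11, adjusted p = 0.00161, limma), a bound of at least 1.57-fold lower. The list had a median difference of -0.22, which was -0.11 after cyclic loess. Cd74, the invariant chain of class II, had 13.76 in Blimp1-hi, against 13.64 and 14.32 in Blimp1-int and 15.71 in naive cells, and the Blimp1-hi value lay between the Blimp1-int values.

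Members of the BCL-2 family, which decide between survival and death of the cell at the mitochondrion, were read for 6 of 36 listed genes. Bcl2, a survival protein, had 9.29 in Blimp1-hi, against 8.50 and 8.64, both below background, in Blimp1-int and 8.90 in naive cells. It passed the test as higher (difference 0.72, SE 0.11, adjusted p = 0.00121, limma), and the bound is at least 1.54-fold higher in Blimp1-hi. A second, dimmer Bcl2 probe had 8.67 in Blimp1-hi, against 8.50 and 8.59 in Blimp1-int. Its difference was 0.13, in the same direction. Bcl2l2, which encodes the survival protein Bcl-w, had 9.45 in Blimp1-hi, against 9.02 and 9.19 in Blimp1-int and 8.82 in naive cells, and did not pass (difference 0.35, SE 0.11, adjusted p = 0.0571, limma). Of the A1 survival genes, Bcl2a1b had 9.62 in Blimp1-hi, against 9.69 and 9.93 in Blimp1-int and 11.70 in naive cells, and Bcl2a1d had 9.16 in Blimp1-hi, against 9.22 and 9.47 in Blimp1-int and 10.81 in naive cells. Neither passed, and Bcl2a1a lay below background in Blimp1-hi, with a difference of -0.12. The A1 genes are near-identical copies, so their probes may read each other's messages. Of genes of the BAFF and APRIL survival signals, 2 of 11 were tested and neither passed, Traf6 with a difference of -0.16 and Map3k14 with 0.12. Mcl1 and Tnfrsf17 could likewise not be assigned a probe.

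Genes of protein synthesis and energy supply were lower in Blimp1-hi in part, and here the count moved with the normalization. Of 68 tested cytosolic ribosomal protein genes, 33 passed as lower, 48.5% beside a background of 9.7%. As higher 1 passed, 1.47% beside a background of 2.95%. The median difference was -0.35, against -0.06 over all genes. When the arrays were normalized again without immunoglobulin probes, 2 passed as lower and the median was -0.07, and after cyclic loess 15 passed and the median was -0.21. Other bright genes also had mostly lower values in Blimp1-hi. The 110 genes with a mean above 12 over the plasma cell arrays had a median difference of -0.39, against -0.03 for the 1281 genes below 9. Among the bright ones, 62 were not ribosomal protein genes and had a median of -0.34, with 45 of them lower, and 48 were and had a median of -0.41. Variable segment probes above 13 had a median of 0.79 instead, at a higher cut and with the 2 group levels weighted equally. What part brightness has in the ribosomal protein values was not tested. Rpl13 had 13.28 in Blimp1-hi, against 14.26 and 14.14 in Blimp1-int and 15.76 in naive cells (difference -0.92, SE 0.11, adjusted p = 0.000236, limma). Rpl7a was the one ribosomal protein gene to pass as higher, with 11.09 in Blimp1-hi, against 10.69 and 10.61 in Blimp1-int and 12.88 in naive cells (difference 0.44, SE 0.10, adjusted p = 0.0148, limma).

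Of 16 tested genes of glycolysis and the pentose phosphate pathway, 8 passed as lower, where 9.7% of all genes did, and none as higher. The median difference was -0.31, and it was -0.083 with no filter on dim genes and -0.48 over genes above background on all 3 plasma cell arrays. The count was 7 both after cyclic loess and without immunoglobulin probes. Gapdh had 12.06 in Blimp1-hi, against 13.03 and 12.80 in Blimp1-int and 13.34 in naive cells (difference -0.86, SE 0.12, adjusted p = 0.00074, limma), and a second Gapdh probe differed by -0.995. Ldha, the lactate dehydrogenase subunit of rapidly growing cells, had 9.73 in Blimp1-hi, against 10.59 and 10.41 in Blimp1-int and 10.996 in naive cells (difference -0.78, SE 0.11, adjusted p = 0.000981, limma). Both had their lowest level of the 4 arrays in Blimp1-hi. Pkm, Eno1, Pgk1, Tkt, Taldo1 and Tpi1 also passed, with differences between -0.75 and -0.39. Phosphofructokinase genes did not follow, with differences of 0.09 in Pfkl and 0.15 in Pfkm. Of 51 tested nuclear genes of oxidative phosphorylation 12 passed as lower, 23.5%, and none as higher (median -0.19). Of 30 mitochondrial ribosomal protein genes 6 passed as lower, 20.0% (median -0.17). Of 22 proteasome genes 9 passed as lower, 40.9%, led by Psma2 with a difference of -0.61. Of 16 genes of cholesterol and lipid synthesis 5 did, 31.25%, led by Fdps with -0.66. Gapdh and Psma2 are among the 110 genes with a mean above 12 over the plasma cell arrays, whose median difference was -0.39. What part brightness has in the values of these lists was not tested.

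The secretory pathway itself, through which antibody leaves the cell, differed in a few members. Of 24 tested genes of the translocon and secretory machinery, 7 passed as lower, 29.2% beside a background of 9.7%, and none as higher. The median difference of -0.10 lay close to the -0.06 of all genes. Cope, a subunit of the coatomer that returns vesicles to the endoplasmic reticulum, had 11.37 in Blimp1-hi, against 12.11 and 12.12 in Blimp1-int and 10.56 in naive cells (difference -0.75, SE 0.10, adjusted p = 0.00074, limma). The 3 Cope probes disagreed, the others differing by -0.47 and 0.26. Ssr4, a subunit of the translocon-associated complex, had 13.29 in Blimp1-hi, against 13.93 and 13.68 in Blimp1-int and 10.40 in naive cells (difference -0.52, SE 0.12, adjusted p = 0.0131, limma). Of 13 genes listed for the unfolded protein response and quality control, 3 passed as lower, 23.1% beside a background of 9.7%, and 2 as higher, 15.4% beside 2.95%. The lower ones were Xbp1, Edem2, which helps to remove misfolded glycoproteins, with -0.52, and Crip1, a small LIM-domain protein that is not a gene of this response, with -0.82. The higher ones were Fkbp2, a prolyl isomerase of the endoplasmic reticulum, with 11.55 in Blimp1-hi, against 10.94 and 11.01 in Blimp1-int and 9.26 in naive cells (difference 0.57, SE 0.10, adjusted p = 0.0039, limma), and Sel1l, with 0.34. Hspa5, the chaperone BiP, had 10.50 in Blimp1-hi, against 10.79 and 10.47 in Blimp1-int and 8.45 in naive cells, so that Blimp1-hi lay between the Blimp1-int values. Xbp1, Ssr4 and Edem2 are among the 110 genes with a mean above 12 over the plasma cell arrays, whose median difference was -0.39.

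**Figure D5:**
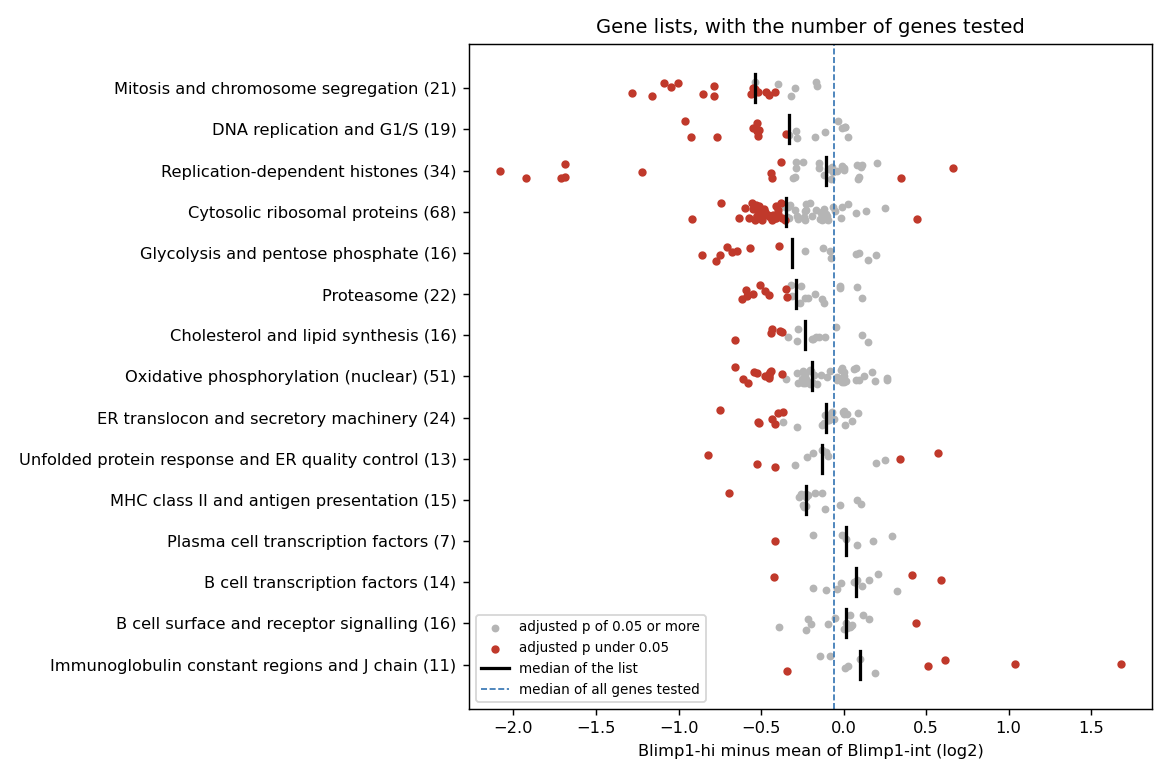
Difference between Blimp1-hi and the mean of the Blimp1-int arrays (log2, x axis) for the tested genes of 15 lists (rows, with the number tested), each point a gene. Red points passed the test, black bars are list medians, and the dashed line is the median of all 2711 genes, -0.06; the mitosis list has its median at -0.54 and the immunoglobulin constant regions at 0.10.

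Other lists held single genes that differed. Of 9 immediate early and stress genes, 2 passed as higher, Zfp36l1, an RNA-binding protein that shortens the life of messages, with 10.99 in Blimp1-hi, against 10.27 and 10.33 in Blimp1-int and 10.55 in naive cells, and Junb, an AP-1 subunit, with 9.62 in Blimp1-hi, against 8.93 and 9.18 in Blimp1-int and 9.16 in naive cells. Both were highest of the 4 arrays in Blimp1-hi, while 2 others of that list, Hspa8 and Ubb, passed as lower with -0.37 each. Each pair was 22.2% of the list, beside backgrounds of 2.95% as higher and 9.7% as lower. Of 13 interferon-stimulated genes, 1 passed, Igtp, with a difference of -0.60 (SE 0.12, adjusted p = 0.0054, limma). That is 7.69% as lower, beside a background of 9.7%. Ifi27l2a had 11.70 in Blimp1-hi, against 12.97 and 11.66 in Blimp1-int, the widest gap between the Blimp1-int arrays of any gene tested, and did not pass. Of 17 genes of migration, adhesion and egress, Klf2 and Actb passed as lower, 11.8% and so near the background of 9.7%. Of 26 lysosomal and autophagy genes 1 did, 3.85%, Ctsz, a cathepsin, with -0.62.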

How the data were processed

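RNA of 4 sorted cell samples, the plasma cell ones from pools of animals, was purified (Trizol, then RNeasy columns, with DNase) and amplified before hybridisation, per the labels' protocols. The deposited log2 values were made by the authors with lumi, per the submitters' processing notes, with no version given. The arrays hold nearly the same distribution, each with a median of 8.36 and a highest value of 16.03. Another deposited table has 8 value columns whose names match no sample, so it was not used. Probe identifiers carry no symbols: 9832 gene numbers in them were matched to RefSeq (GRCm38.p6), and 36270 probes stayed without a name. The background of an array is the mean plus 3 SD of its 42 foreign probes.

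For each gene the brightest probe above background was used. The fit gave each of the 3 groups a mean and tested Blimp1-hi minus Blimp1-int by moderated statistics (eBayes of limma 3.58.1, R 4.3.3; two-sided; Benjamini-Hochberg). The Blimp1-int pair alone supplies the residual degree of freedom, 1, to which the prior over genes adds 11.2. In the separate fit over all probes the prior adds 5.2, so adjusted p-values of probes and of genes are not on the same footing. It was tested on simulated data. Where a group is below background, the bound sets the brighter mean against the lowest signal above background. The number of arrays limits the precision.

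The members and gene lists were chosen with earlier results of these data known. Named genes are the sort markers, the reporter, the BCL-2, BAFF and APRIL genes, the called genes, the leading members of each list and of each probe class, and those nearest the threshold. Other genes were named after their values were seen. Alternatives were other normalizations, filters, probe summaries, variance models, thresholds, the plasma cell arrays alone, and either Blimp1-int array left out. One tested gene of the lists is not reported here.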

Additional observations from a re-analysis of the deposited data

How the results depend on the processing

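No paired analysis was possible because Blimp1-hi has 1 array and no replicate number shared with Blimp1-int. The 7 genes called higher became 80 and the 11 called lower 263 by the adjusted p alone, and 3 were higher by over 2-fold from each Blimp1-int array. Leaving out a Blimp1-int array gave 3 to 9 higher and 10 to 14 lower genes past 2-fold, with no test. Without replicate 1 the calls of Apoe (0.94), Iglc3 (0.67), ND5 (0.87), Serpina3g (0.77), Cdc20 (-0.99) and Cenpa (-0.95) were lost. Of the 18 called genes 12 kept the call in every setting that gave them a value; immunoglobulin genes have none in the normalization without immunoglobulin probes. With no filter on dim probes, 151 genes passed as higher and 411 as lower by the adjusted p alone, and 850 and 1042 probes did. Among probes, 276 were higher and 324 lower by the adjusted p alone, against 90 and 28 called, and 107 variable segment probes were higher.

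Normalization again without immunoglobulin probes, which leaves the variable segments out by construction, gave 159 lower genes, 31 called higher probes and 212 lower probes, and for cytosolic ribosomal proteins 2 lower genes and a median of -0.066. After cyclic loess these were 15 and -0.21, and the median was 0.91 for variable segments and 0.29 for constant regions and J chain. With no filter the medians were 0.49 for variable segments, 0.024 for constant regions, -0.32 for mitosis, -0.12 for DNA replication and -0.083 for glycolysis, as dim genes joined. The glycolysis median was -0.39 over genes above background on at least 1 plasma cell array and -0.48 over those above it on all 3. Leaving out a Blimp1-int array gave medians of 0.78 to 0.86 for variable segments and -0.41 to -0.31 for DNA replication. The causes of the other shifts were not tested. No difference, median or count listed here changed direction, but the share of lower probes among those that passed the test, 54.0%, was 42.4% after cyclic loess and 44.8% with a variance trend. Genes near background, where H2B, H4 and BCL-2 genes lie, are measured least well.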

Other observations

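Some of the 80 genes that passed the test as higher in Blimp1-hi are in none of the lists described above, and 5 of them are given here, chosen after their values were seen. Satb1, a chromatin organizer of lymphocytes, had 9.54 in Blimp1-hi, against 8.71 and 8.75 in Blimp1-int and 9.94 in naive cells (difference 0.81, SE 0.10, adjusted p = 0.000474, limma). Slc6a9, a glycine transporter, had 9.63 in Blimp1-hi, against 8.66 and 8.91 in Blimp1-int and 8.40 in naive cells, below background there (difference 0.84, SE 0.12, adjusted p = 0.000923, limma). Cebpb, a transcription factor, had 10.30 in Blimp1-hi, against 9.58 and 9.72 in Blimp1-int and 8.97 in naive cells (difference 0.65, SE 0.11, adjusted p = 0.00237, limma). Cst3, which encodes the protease inhibitor cystatin C, had 12.88 in Blimp1-hi, against 12.14 and 12.23 in Blimp1-int and 12.01 in naive cells (difference 0.70, SE 0.10, adjusted p = 0.00121, limma). In each of these the Blimp1-hi value was above both Blimp1-int values, as it was for 37.9% of all 9366 probes, but these genes were chosen for passing the test as higher. Cd69, a surface protein that keeps lymphocytes in tissue, had 9.39 in Blimp1-hi, against 8.80 and 8.88 in Blimp1-int and 9.91 in naive cells (difference 0.56, SE 0.10, adjusted p = 0.00474, limma). On the lower side Erp29, a chaperone of the endoplasmic reticulum that was in no list, had 12.09 in Blimp1-hi, against 13.04 and 12.85 in Blimp1-int and 12.35 in naive cells (difference -0.86, SE 0.11, adjusted p = 0.000555, limma).

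Probes without a gene name held calls of both directions. Of 6094 tested, 21 were called higher and 17 lower, and their median difference was 0.00. The unnamed probe with the highest difference had 12.04 in Blimp1-hi, against 9.45 and 9.53 in Blimp1-int and 8.71 in naive cells (difference 2.55, SE 0.09, adjusted p = 0.00101, limma). The Blimp1-int arrays differed by 0.07 there, and the sequence behind this probe is not known here. The unnamed probe with the lowest difference had 12.64 in Blimp1-hi, against 14.71 and 14.36 in Blimp1-int and 12.68 in naive cells (difference -1.89, SE 0.15, adjusted p = 0.00349, limma). It is 1 of 11 tested probes whose sequence record numbers lie within the same short range, of which 8 were called lower, with a median difference of -1.45. What genes these are was not tested.

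Ribosomal RNA was read by 3 tested probes for 18S. They differed by 0.39, 0.37 and 0.14, all above 0 and none past the test over all probes (lowest adjusted p = 0.0598, limma). On these probes Blimp1-hi had 14.05, 14.64 and 13.14, against 13.67, 14.10 and 13.03 in Blimp1-int replicate 1 and 13.64, 14.43 and 12.97 in replicate 2.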
